A study of Mus musculus with 12 samples.

Results

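Members of the transforming growth factor beta (TGF-beta) system, 10 of the 21956 genes in the deposited count table, were followed in mouse brain after intracerebral hemorrhage (ICH). They were taken by symbol: the ligands Tgfb1, Tgfb2, Tgfb3, Inhba, Gdf15 and Bmp4, the receptors Tgfbr1 and Tgfbr2, the intracellular inhibitor Smad7, and Tgfbi, a matrix protein named for its induction by TGF-beta. All 10 symbols matched 1 row each. Poly(A) RNA was sequenced from 12 samples in 4 groups of 3, which the labels call Sham-Fabp4fl_fl, Sham-Fabp4CKO, ICH-Fabp4fl_fl and ICH-Fabp4CKO (fl/fl and CKO in the plots). The ICH groups received collagenase in the right striatum, and tissue next to the hematoma was taken 48 h later, while sham mice gave the same region without the injury. Every group carried floxed Fabp4 alleles, the gene of a fatty acid binding protein. The CKO mice carried in addition 1 Tmem119 creER allele, a tamoxifen-dependent recombinase driven from a microglial gene, and received tamoxifen daily before surgery. Whether the fl_fl mice received tamoxifen, the age of the floxed mice and the number of mice behind each sample were not given in the sources used here, so p-values measure the spread between these samples.

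TGF-beta ligands are secreted in a latent complex and must be released before they bind a type II receptor, encoded by Tgfbr2, which recruits and phosphorylates the type I receptor encoded by Tgfbr1. The active receptor passes the signal to Smad proteins that enter the nucleus with Smad4, and Smad7 closes the loop by blocking the type I receptor. In the brain the pathway is known for maintaining the microglial identity, for steadying contacts between endothelial cells and pericytes, and for scar formation after injury.

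The libraries held 15650822 to 22406226 counts. Fabp4 had 46, 63 and 24 reads in ICH-Fabp4fl_fl and 5, 3 and 10 reads in ICH-Fabp4CKO, against 2, 1 and 2 reads in Sham-Fabp4fl_fl and 0 in each Sham-Fabp4CKO sample. Replicate 1 of ICH-Fabp4CKO stood apart, with 1 read over 4 Y-linked genes against 1302 to 2251 in the other 11 libraries. The study's methods name males for the wild-type mice and give no sex for the floxed mice. Replicate 1 of ICH-Fabp4fl_fl had 16.3% mitochondrial reads against 7.90% to 11.9% in the others. Summed markers of choroid plexus, the secretory epithelium of the ventricles (Ttr, Folr1, Kl, Clic6 and Otx2), ranged from 849 to 3231 CPM (counts scaled to a common library size) in Sham-Fabp4fl_fl, against 46.5 to 54.8 CPM in Sham-Fabp4CKO and 15.3 to 27.9 CPM in the ICH groups. The labelled tissue was brain, and summed neuronal markers of 1138 to 4624 CPM and astrocyte markers of 2812 to 7555 CPM were present in every library. In these bulk samples, fewer cells of a type and less RNA per cell cannot be told apart.

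Levels are given as CPM normalized by the trimmed mean of M values over all 12 libraries, and differences as log2 fold changes from the quasi-likelihood test of edgeR. Its p-values were adjusted over all genes tested by the Benjamini-Hochberg method, and a gene was called at an adjusted p under 0.05. After ICH in fl_fl mice, 6 of the 10 members rose and 1 fell, where 26.2% of the 14719 genes tested rose and 19.3% fell. After ICH in CKO mice, 7 rose and 0 fell, against 24.5% and 11.1% of 14737 genes. Without any 1 of the 3 Sham-Fabp4CKO libraries, 3 or 4 members rose, and the number of all genes called went from 5247 to between 751 and 847. The median log2 difference of the members was 1.04 in fl_fl and 2.05 in CKO mice, against 0.02 and 0.01 over all genes tested. The groups did not overlap for 6 members higher and 1 lower in fl_fl mice (33.0% and 29.0% of all genes) and for 7 higher and 1 lower in CKO mice (32.1% and 30.3%). None of the members passed the adjusted threshold of edgeR between genotypes, after ICH or in sham.

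**Figure D1:**
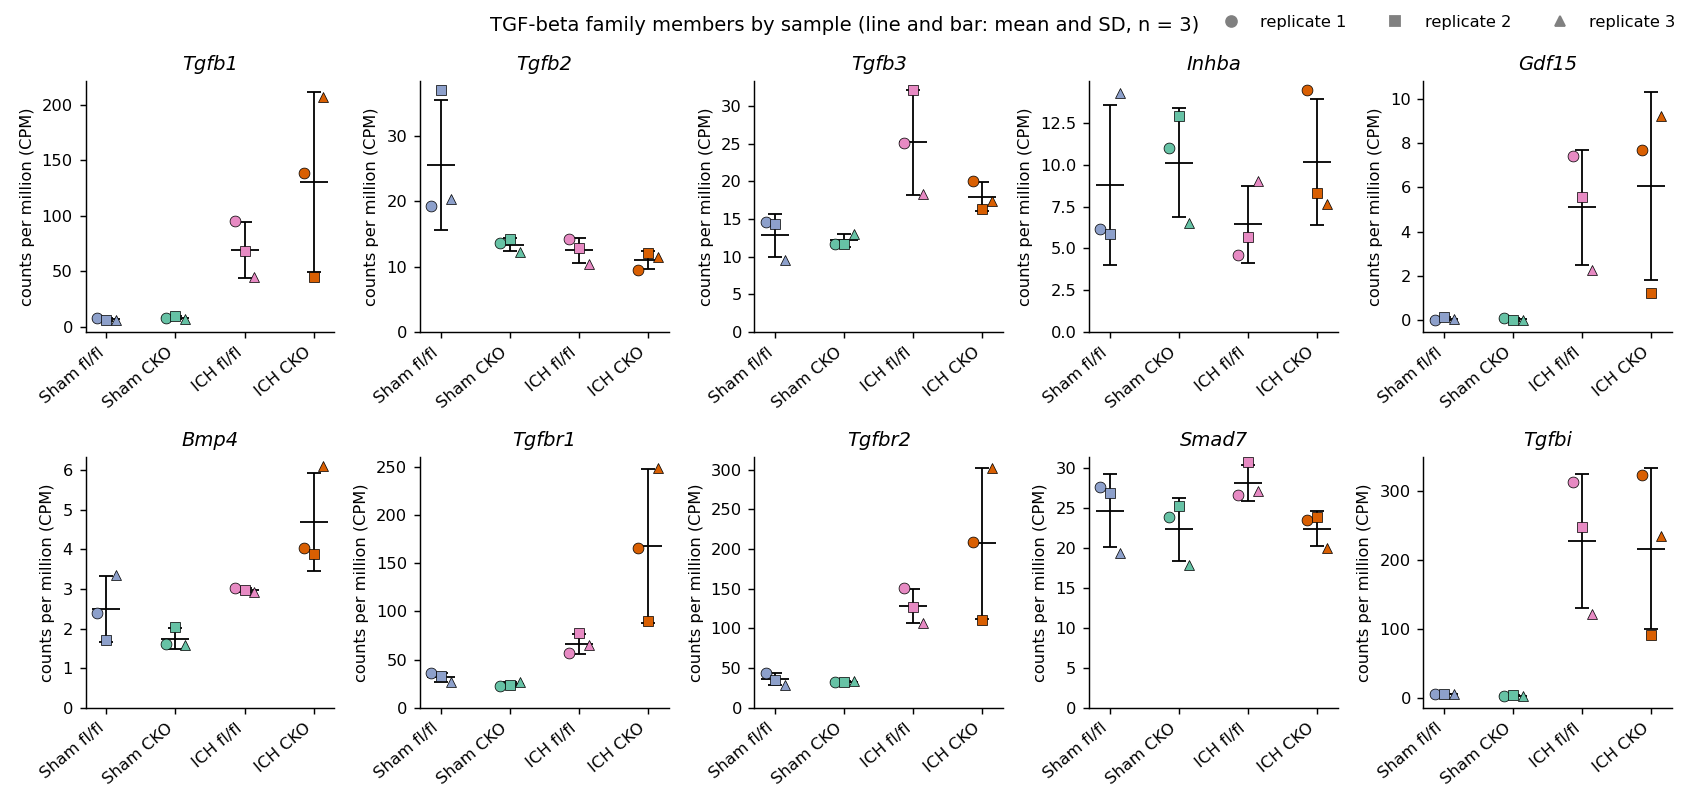
CPM of each of the 10 genes in the 12 samples, 1 panel per gene with its own linear axis from 0. Symbols are samples with the shape giving the replicate number, and lines and bars are the group mean and SD (n = 3). The sham samples of Tgfb1, Tgfbi and Gdf15 lie near 0 while every ICH sample lies above them, and in Tgfb2 the Sham-Fabp4fl_fl samples at 19.3 to 37.0 CPM lie above all others.

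Tgfb1, Tgfbi and both receptors rose after ICH in both genotypes, as did Gdf15 and Tgfb3. For Tgfb1, Tgfbi and the receptors, the sequences just upstream of the transcription starts are shown. They come from RefSeq on GRCm38.p6 and are written in the direction of transcription, with CAGAC or its reverse complement GTCTG in capitals. CAGAC is the short box to which Smad3 and Smad4 bind. The Tgfb1 stretch is chr7:25686752-25687001 on the + strand, the Tgfbr1 stretch is chr4:47352972-47353221 on the + strand at the first of its 2 listed starts, the Tgfbr2 stretch is chr9:116175364-116175613 on the - strand, and the Tgfbi stretch is chr13:56609336-56609522 on the + strand, cut where the GENCODE gene model begins.
Tgfb1: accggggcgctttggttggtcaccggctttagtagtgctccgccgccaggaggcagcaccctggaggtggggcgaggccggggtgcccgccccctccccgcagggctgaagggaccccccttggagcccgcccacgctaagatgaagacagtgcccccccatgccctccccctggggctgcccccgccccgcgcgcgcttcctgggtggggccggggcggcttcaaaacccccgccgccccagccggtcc
Tgfbr1: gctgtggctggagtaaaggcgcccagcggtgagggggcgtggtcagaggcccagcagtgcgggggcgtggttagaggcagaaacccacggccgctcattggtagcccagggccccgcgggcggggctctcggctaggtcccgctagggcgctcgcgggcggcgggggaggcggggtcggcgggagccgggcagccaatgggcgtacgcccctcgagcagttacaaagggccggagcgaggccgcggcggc
Tgfbr2: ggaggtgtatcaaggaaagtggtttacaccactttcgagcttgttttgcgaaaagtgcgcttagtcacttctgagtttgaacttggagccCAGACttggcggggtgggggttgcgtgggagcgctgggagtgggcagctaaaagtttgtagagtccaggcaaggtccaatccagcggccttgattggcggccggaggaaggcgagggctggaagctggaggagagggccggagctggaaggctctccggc
Tgfbi: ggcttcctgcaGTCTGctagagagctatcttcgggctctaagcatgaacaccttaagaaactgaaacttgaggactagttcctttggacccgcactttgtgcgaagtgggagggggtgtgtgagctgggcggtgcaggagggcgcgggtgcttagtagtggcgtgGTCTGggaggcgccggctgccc
The Tgfbi stretch held 2 matches, beginning 239 and 85 bases before the RefSeq start, and the Tgfbr2 stretch held 1, beginning 160 bases before it. The Tgfb1 stretch and this Tgfbr1 stretch held 0 matches to these letters, while the window before the other Tgfbr1 start, chr4:47385966-47386215, held 1, beginning 203 bases before that start. The windows before the listed Gdf15 starts, which are not shown, held 1 match each. The RefSeq table held 10 windows for 8 of the 10 genes, without Tgfb3 and Smad7, and in the 250 bases before the start 6 of the 10 windows held CAGAC on either strand. That share is set beside 42.2% of all 32851 windows of this length in the table. The palindromic Smad element GTCTAGAC (0.167% of all windows) and the AP-1 site TGAGTCA (4.46%) were searched on both strands and were found in 0 of the 10 windows. None of the 3 motifs contains another.

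Tgfb1 (ENSMUSG00000002603) is the TGF-beta ligand most tied to immune cells, and it rose in both genotypes. Its level was 8.23, 5.97 and 6.25 CPM in Sham-Fabp4fl_fl and 94.99, 68.1 and 44.9 CPM in ICH-Fabp4fl_fl. In CKO mice it was 7.71, 9.93 and 7.07 CPM in sham and 138, 45.3 and 207 CPM after ICH. Every ICH sample lay above every sham sample in both genotypes. The log2 difference was 3.36 (SE 0.31, adjusted p = 0.000421), a 10.3-fold rise, in fl_fl mice, and 3.99 (SE 0.57, adjusted p = 0.0076), a 15.9-fold rise, in CKO mice. In CKO mice the call was lost without Sham-Fabp4CKO replicate 3 (adjusted p = 0.0507), with a log2 difference of 3.89.

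Tgfb2 (ENSMUSG00000039239), the ligand of neurons, astrocytes and epithelia in the brain, fell in fl_fl mice. It measured 19.3, 37.0 and 20.3 CPM in Sham-Fabp4fl_fl and 14.3, 12.9 and 10.5 CPM in ICH-Fabp4fl_fl. In CKO mice it measured 13.6, 14.2 and 12.3 CPM in sham and 9.45, 12.2 and 11.5 CPM after ICH. The 3 Sham-Fabp4fl_fl samples were thus higher than the other 9, and the highest, replicate 2, stood well above its own group. The log2 difference after ICH was -1.01 (SE 0.28, adjusted p = 0.0238) in fl_fl mice and -0.26 (SE 0.16, adjusted p = 0.22) in CKO mice. The fl_fl call was lost without ICH-Fabp4fl_fl replicate 2 (adjusted p = 0.0677). Choroid plexus markers were high in the same 3 sham samples, and all 5 of them fell after ICH in fl_fl mice (19.3% of all genes fell). The part of choroid plexus in the Tgfb2 difference was not tested. Within those 3 samples the order differed: Tgfb2 was highest in replicate 2, where the marker sum was 1632 CPM, and not in replicate 3, where it was 3231 CPM.

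Tgfb3 (ENSMUSG00000021253), a ligand of mesenchymal and vascular tissue, rose in both genotypes by the smallest amounts among the members that rose. It went from 14.6, 14.3 and 9.56 CPM to 25.1, 32.2 and 18.3 CPM in fl_fl mice, and from 11.7, 11.7 and 13.1 CPM to 20.1, 16.4 and 17.4 CPM in CKO mice. The groups did not overlap in either genotype. The log2 differences were 0.99 (SE 0.26, adjusted p = 0.0189) and 0.58 (SE 0.14, adjusted p = 0.028). The fl_fl call was lost without Sham-Fabp4fl_fl replicate 2 or 3 or ICH-Fabp4fl_fl replicate 2 (adjusted p = 0.0537, 0.0615 and 0.0829), and the CKO call was lost without any single sample other than ICH-Fabp4CKO replicate 2 (adjusted p = 0.0591 to 0.114).

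Divided by the length of the gene's exons in GENCODE M21, the 3 TGF-beta ligands changed places. Per kilobase, Tgfb1 made up 10.02% to 17.6% of the 3 ligands in Sham-Fabp4fl_fl and 19.0% to 25.0% in Sham-Fabp4CKO. After ICH its share was 53.5% to 65.6% in fl_fl mice and 56.4%, 78.4% and 85.2% in CKO mice. Tgfb2 went from 36.0% to 54.1% down to 8.57% to 11.2% in fl_fl mice, and from 28.8% to 31.9% down to 4.14% to 13.2% in CKO mice. Tgfb1 was therefore the least abundant of the 3 in every sham sample and the most abundant in every ICH sample on this scale. The Tgfb1 share rose by 43.5 percentage points in fl_fl and 51.7 points in CKO mice, each with a two-sided exact permutation p of 0.1, the smallest that 3 samples against 3 allow. Between genotypes after ICH the Tgfb1 shares overlapped (exact permutation p = 0.2). In sham the Tgfb1 share was 6.94 points higher and the Tgfb2 share 14.8 points lower in CKO mice, with no overlap (exact permutation p = 0.1 each), beside the choroid plexus sums given above.

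**Figure D2:**
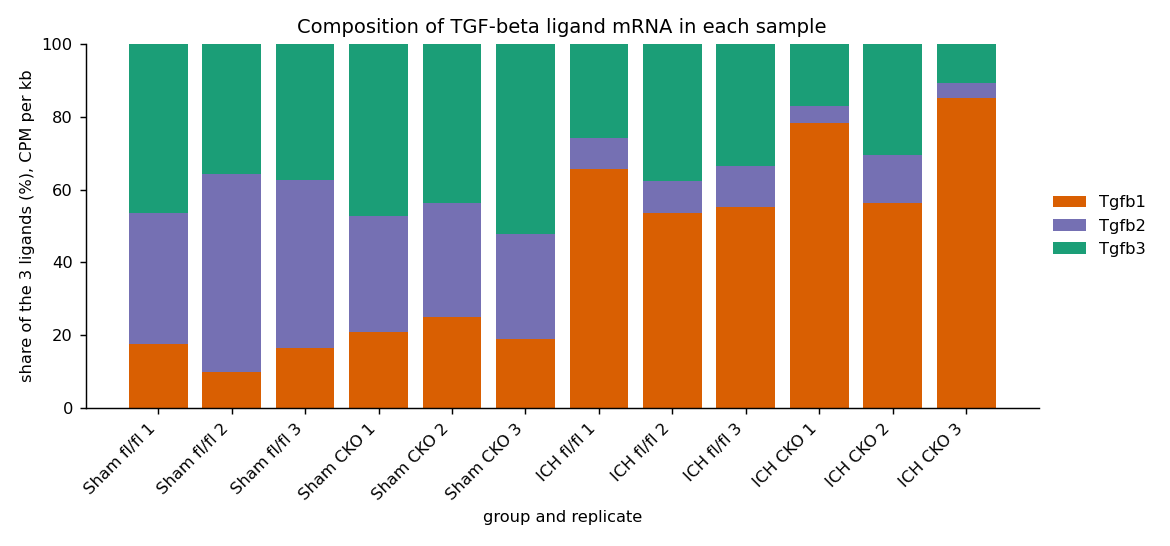
Share of Tgfb1, Tgfb2 and Tgfb3 in their sum, from CPM per kilobase of exon, in each of the 12 samples (stacked bars to 100%). Tgfb1 fills 10.02% to 25.0% of the bar in sham samples and 53.5% to 85.2% in ICH samples.

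Gdf15 (ENSMUSG00000038508), a stress-induced ligand that signals through Gfral rather than through the TGF-beta receptors, went from nearly undetected to clearly counted. It had 0, 3 and 1 reads in Sham-Fabp4fl_fl and 2, 0 and 0 reads in Sham-Fabp4CKO. After ICH it had 113, 92 and 43 reads (7.42, 5.56 and 2.29 CPM) in fl_fl mice and 118, 23 and 166 reads (7.69, 1.23 and 9.21 CPM) in CKO mice. Set against a floor of 3 counts per sham library, the mean level after ICH was at least 32.7-fold higher in fl_fl and at least 43.3-fold higher in CKO mice. Both rises passed the test (adjusted p = 0.00144 and 0.0101), the latter not without any 1 of the Sham-Fabp4CKO samples (adjusted p = 0.0557 to 0.0594). These floors cover counting error only.

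Bmp4 (ENSMUSG00000021835), a bone morphogenetic protein that acts on glial lineages, was low in all samples. It measured 2.39, 1.71 and 3.36 CPM in Sham-Fabp4fl_fl and 3.02, 2.96 and 2.92 CPM in ICH-Fabp4fl_fl, which overlapped. In CKO mice it rose from 1.61, 2.04 and 1.59 CPM to 4.04, 3.89 and 6.10 CPM with no overlap. The log2 difference was 0.27 (95% interval -0.47 to 1.01, adjusted p = 0.505) in fl_fl mice and 1.43 (SE 0.27, adjusted p = 0.0139) in CKO mice. The CKO call was lost without any 1 of the 3 Sham-Fabp4CKO samples (adjusted p = 0.0545 to 0.0709). Inhba (ENSMUSG00000041324), the activin A subunit that neurons make with activity, spread widely within groups, between 4.60 and 14.5 CPM. Its log2 difference after ICH was -0.42 (95% interval -1.39 to 0.55) in fl_fl and 0.02 (95% interval -0.84 to 0.87) in CKO mice, and all groups overlapped.

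Both receptors rose after ICH. Tgfbr1 (ENSMUSG00000007613), the type I kinase, measured 35.8, 32.8 and 26.3 CPM in Sham-Fabp4fl_fl and 57.2, 77.6 and 64.7 CPM in ICH-Fabp4fl_fl. In CKO mice it measured 23.0, 23.4 and 26.6 CPM in sham and 165, 89.7 and 249 CPM after ICH. All ICH samples lay above all sham samples, and the 3 ICH-Fabp4CKO samples lay above the 3 ICH-Fabp4fl_fl samples. The log2 difference was 1.09 (SE 0.18, adjusted p = 0.00308) in fl_fl mice and 2.80 (SE 0.37, adjusted p = 0.0066) in CKO mice. Tgfbr2 (ENSMUSG00000032440), the type II kinase that binds ligand first, measured 44.0, 35.3 and 28.7 CPM in Sham-Fabp4fl_fl and 150.4, 127 and 107 CPM in ICH-Fabp4fl_fl. In CKO mice it measured 32.7, 32.7 and 33.4 CPM in sham and 209, 111 and 302 CPM after ICH. It was higher in every ICH sample, with log2 differences of 1.85 (SE 0.22, adjusted p = 0.000867) and 2.67 (SE 0.36, adjusted p = 0.00677). For Tgfbr2, replicate 2 of ICH-Fabp4CKO lay within the range of the ICH-Fabp4fl_fl samples, and replicates 1 and 3 lay above it.

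Smad7 (ENSMUSG00000025880), the inhibitory Smad that TGF-beta usually induces, did not pass the test in any comparison. It measured 19.3 to 27.6 CPM in Sham-Fabp4fl_fl, 17.8 to 25.2 CPM in Sham-Fabp4CKO, 26.5 to 30.7 CPM in ICH-Fabp4fl_fl and 19.9 to 23.8 CPM in ICH-Fabp4CKO. The log2 difference after ICH was 0.21 (95% interval -0.20 to 0.62) in fl_fl and 0.02 (95% interval -0.40 to 0.45) in CKO mice, so the intervals leave out a change of 1 log2 unit in either direction.

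Tgfbi (ENSMUSG00000035493), an extracellular matrix adaptor made by macrophages and fibroblasts among others, had the highest level per kilobase of exon among the members after ICH. It measured 6.46, 5.91 and 6.31 CPM in Sham-Fabp4fl_fl and 313, 247 and 122 CPM in ICH-Fabp4fl_fl. In CKO mice it measured 3.12, 4.81 and 3.47 CPM in sham and 323, 91.6 and 235 CPM after ICH. No ICH sample came near a sham sample. The log2 differences were 5.21 (SE 0.38, adjusted p = 0.000341), a 37.0-fold rise, in fl_fl mice and 5.84 (SE 0.55, adjusted p = 0.00478), a 57.4-fold rise, in CKO mice. Per kilobase, Tgfbi had the sixth of the 10 levels in Sham-Fabp4fl_fl, 1.65 ± 0.08 CPM per kb (SD, n = 3), and the highest in ICH-Fabp4fl_fl, 60.3 ± 25.8 CPM per kb. On the same scale Smad7 had the highest level in Sham-Fabp4fl_fl, 5.44 ± 1.01 CPM per kb, close to Tgfbr1 at 4.84 ± 0.74 and within its spread. After ICH in fl_fl mice Tgfbr2 (15.6 ± 2.7), Tgfb1 (13.8 ± 5.0) and Tgfbr1 (10.2 ± 1.6 CPM per kb) followed Tgfbi, and the spreads of Tgfb1 overlapped those of both receptors. Gdf15 had the lowest level per kilobase in both sham groups and Inhba in both ICH groups.

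Between genotypes after ICH, 0 of the 10 members and 0 of 14600 genes passed the adjusted threshold, while 1777 genes (12.2%) had an unadjusted p under 0.05. DESeq2 called 578 genes in the same comparison. Tgfbr1 had the largest difference among the members, a log2 value of 1.33 (SE 0.37, 95% interval 0.44 to 2.22, edgeR adjusted p = 0.318), with the CKO samples all higher. It was called by DESeq2 (adjusted p = 0.0371) and with all 12 libraries in 1 edgeR fit (adjusted p = 0.0492), and it was the only member past an unadjusted p under 0.05 with a fold of at least 1.5, a pair of thresholds that 4.40% of all genes passed upward. Without ICH-Fabp4CKO replicate 1, the library with 1 Y-linked read, the log2 value for Tgfbr1 was 1.34, and with each of the 6 samples left out in turn it ranged from 0.94, without replicate 3 of that group, to 1.63, without replicate 2. Bmp4 was also higher in all CKO samples (log2 0.65, 95% interval -0.02 to 1.31) and Smad7 lower in all (log2 -0.33, 95% interval -0.71 to 0.04). The groups did not overlap in these 3 members, as in 10.3% of all genes higher and 9.51% lower. Tgfb1 (0.90, 95% interval -0.43 to 2.22), Tgfbr2 (0.69, -0.20 to 1.57), Tgfb3 (-0.49, -1.06 to 0.08), Inhba (0.65, -0.24 to 1.53), Gdf15 (0.24, -1.55 to 2.03), Tgfb2 (-0.19, -0.68 to 0.31) and Tgfbi (-0.08, -1.34 to 1.18) overlapped between genotypes.

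The difference between the genotypes' responses to ICH, tested as an interaction over all 12 libraries, was called for 0 members and for 3 of 15089 genes, 0.0199% (0.0133% higher and 0.00663% lower). DESeq2 called 266 genes. Tgfbr1 again had the largest log2 value among the members, 1.67 (SE 0.41, edgeR adjusted p = 0.264), and was called by DESeq2 (adjusted p = 0.0184) and without ICH-Fabp4CKO replicate 2 (log2 1.97, adjusted p = 0.0193). For Bmp4 the value was 1.12 (SE 0.41, edgeR adjusted p = 0.395). These 2 members passed the unadjusted p with the 1.5-fold threshold, as did 4.61% of all genes upward. The fall of Tgfb2 and the rise of Bmp4 that passed in 1 genotype each were thus not shown to differ between genotypes (Tgfb2 interaction 0.70, 95% interval -0.07 to 1.48, adjusted p = 0.543).

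**Figure D3:**
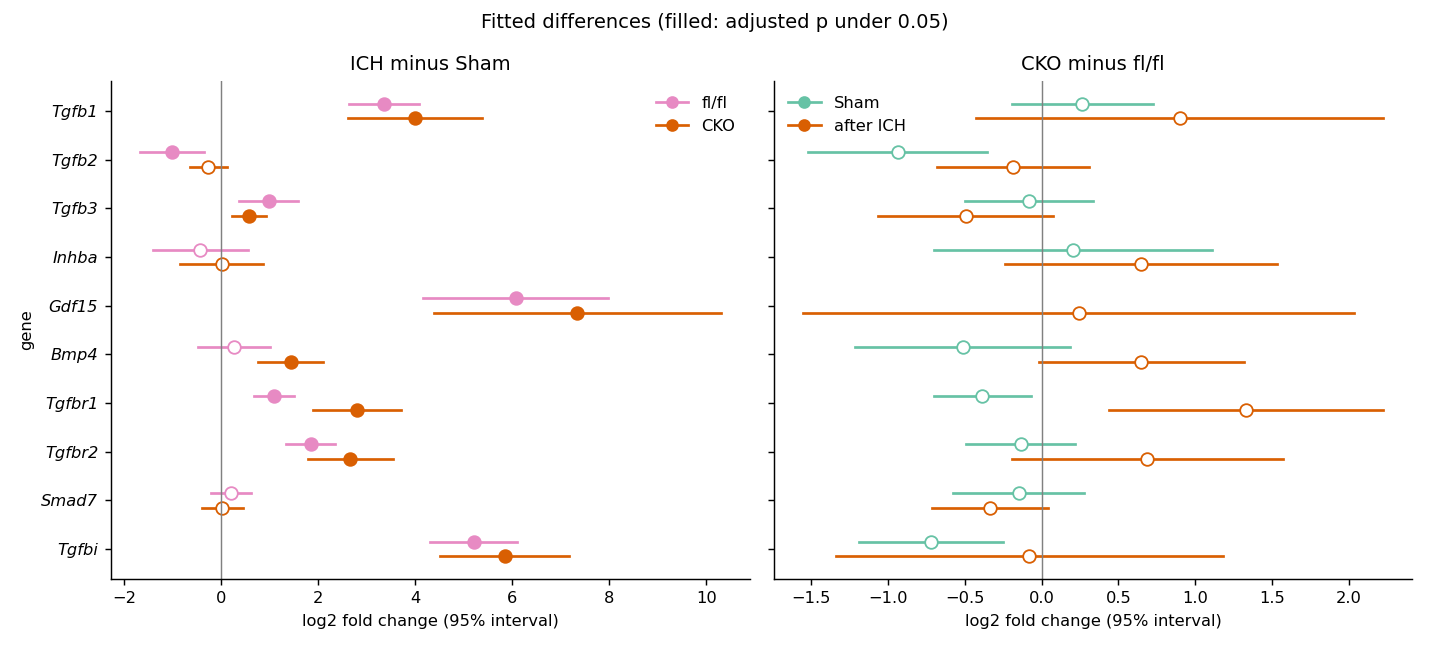
Log2 differences of the 10 genes with 95% intervals, at left ICH minus sham in each genotype and at right CKO minus fl_fl in sham and after ICH. Filled circles passed an adjusted p under 0.05, which 7 genes did in each genotype at left and 0 did at right, and Gdf15 in sham was not tested for low counts.

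Markers of several cell types were higher after ICH. In ICH-Fabp4CKO 7 microglia markers (Tmem119, P2ry12, Sall1, Cx3cr1, Siglech, Gpr34 and P2ry13) summed to 824, 578 and 974 CPM in replicates 1 to 3, against 499, 532 and 649 CPM in ICH-Fabp4fl_fl and 194 to 231 CPM in sham. The sums of both ICH groups lay above all sham samples and overlapped each other. Tgfb1, Tgfbr1 and Tgfbr2 had the same order over the 3 ICH-Fabp4CKO samples as this sum, with replicate 2 lowest and replicate 3 highest. In ICH-Fabp4fl_fl they did not: Tgfb1 and Tgfbr2 had the reverse order of the sum, and Tgfbr1 was highest in replicate 2, where the sum was in the middle. Of the 7 microglia markers, 6 rose after ICH in each genotype, where 26.2% of all genes rose in fl_fl and 24.5% in CKO mice. After ICH 0 of the 7 markers passed the adjusted threshold of edgeR between genotypes. None of the 7 was at 0 in all libraries. As a percentage of this sum, Tgfbr1 stood at 9.96% to 14.6% in ICH-Fabp4fl_fl and 15.5% to 25.6% in ICH-Fabp4CKO. These ranges did not overlap with all 7 markers but did without Tmem119 (11.6% to 18.4% and 17.6% to 31.1%), so the separation depended on which markers were summed. The part of cell numbers in the Tgfbr1 difference was not tested.

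Markers of other cell types moved as well. Of the 8 monocyte and macrophage markers, 6 passed the adjusted threshold upward after ICH in fl_fl mice and 7 did in CKO mice (26.2% and 24.5% of all genes). In CKO mice 1 of the 8 was lower in all ICH samples (30.3% of all genes were). The monocyte and macrophage list (Ccr2, Ly6c2, Mrc1, Cd163, Arg1, Lyve1, Chil3 and Vcan) summed to 26.5 to 29.2 CPM in sham, 704, 334 and 147 CPM in ICH-Fabp4fl_fl and 545, 140 and 525 CPM in ICH-Fabp4CKO. Tgfbi followed the same order over the 3 samples of each ICH group, and amounted to 44.5% to 83.0% of that sum after ICH against 10.7% to 22.2% in sham. Tgfb1 amounted to 13.5% to 39.3% of it after ICH and 21.3% to 34.8% in sham, ranges that overlap. Neutrophil markers reached 134, 18.2 and 238 CPM in ICH-Fabp4CKO against 17.6 to 47.96 CPM in ICH-Fabp4fl_fl, and fibroblast markers reached 1222, 150 and 2454 CPM against 187 to 473 CPM. Each of the 8 endothelial markers, like 9.51% of all genes, had lower levels in all ICH-Fabp4CKO samples than in ICH-Fabp4fl_fl. Of these 8 markers, 0 passed the adjusted threshold. Their sums were 354 to 441 CPM against 636 to 1229 CPM, and 284 to 334 CPM in sham. Tgfb3 amounted to 4.51% to 4.63% of that sum in ICH-Fabp4CKO and 2.04% to 3.83% in ICH-Fabp4fl_fl. In sham it amounted to 3.94% to 4.55% in CKO and 3.16% to 4.41% in fl_fl mice. Of the pericyte and smooth muscle sum, Tgfb3 amounted to 2.82% to 5.51% in ICH-Fabp4CKO and 2.59% to 4.03% in ICH-Fabp4fl_fl, which overlap. The 5 oligodendrocyte markers (Mbp, Mog, Mag, Mobp and Cnp) also had lower levels in all ICH-Fabp4CKO samples (9.51% of all genes did), and 0 passed the adjusted threshold. Their sum was 6918 to 11912 CPM in Sham-Fabp4fl_fl, 8476 to 9194 CPM in Sham-Fabp4CKO, 15168 to 22790.03 CPM in ICH-Fabp4fl_fl and 6042 to 9406 CPM in ICH-Fabp4CKO. Tgfb3 amounted to 0.120% to 0.138% of that sum in Sham-Fabp4fl_fl and 0.110% to 0.167% in ICH-Fabp4fl_fl, which overlap, and to 0.127% to 0.154% and 0.175% to 0.287% in the CKO groups, which do not. The part of these cells in the members' differences was not tested.

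**Figure D4:**
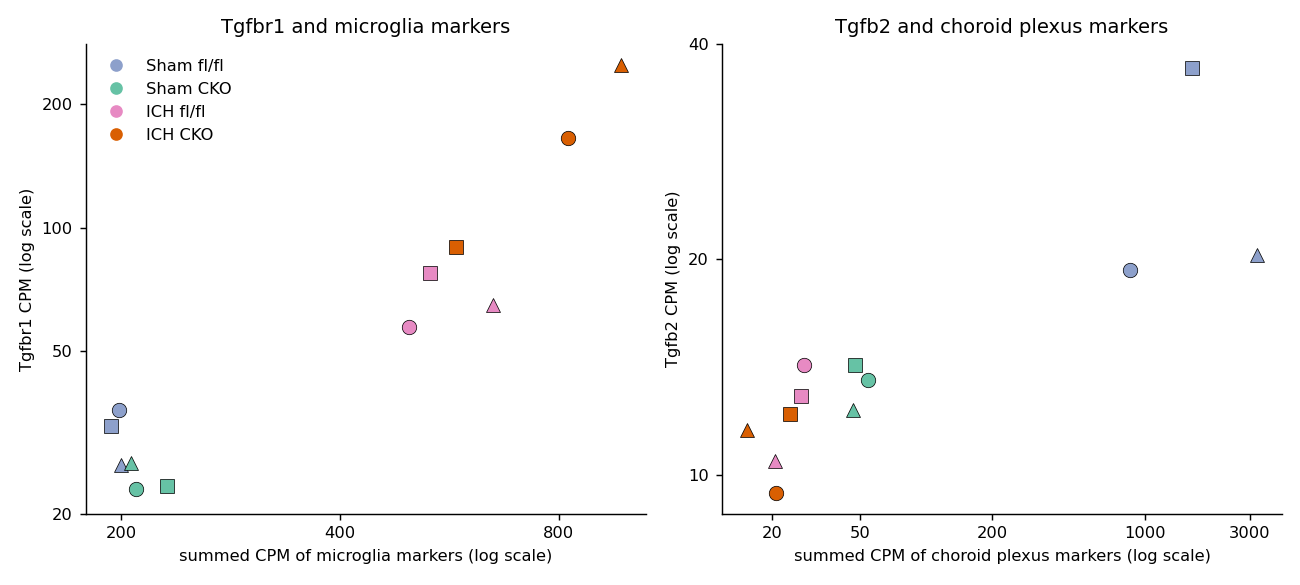
Left, Tgfbr1 CPM against the summed CPM of 7 microglia markers, and right, Tgfb2 CPM against the summed CPM of 5 choroid plexus markers, in 12 samples (log axes, colour for group, shape for replicate, 2 sham replicates nearly coincide at left). The ICH-Fabp4CKO samples spread along the microglia axis from 578 to 974 CPM, and the 3 Sham-Fabp4fl_fl samples stand apart at right at 849 to 3231 CPM.

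In sham mice 0 of the 9 members tested passed the adjusted threshold between genotypes, where 16 of 14395 genes (0.111%) did, all lower in CKO mice. Gdf15 was left out for low counts. Tgfb2 (log2 -0.94, SE 0.25, edgeR adjusted p = 0.407) and Tgfbi (log2 -0.72, SE 0.20, edgeR adjusted p = 0.423) had lower levels in all 3 Sham-Fabp4CKO samples (8.07% of all genes did so, and 0 members and 6.79% of all genes were higher in all), and both passed the unadjusted p with the 1.5-fold threshold, as 3.23% of all genes did downward. DESeq2 called Tgfb2 (adjusted p = 0.0373). Without Sham-Fabp4fl_fl replicate 3, Tgfb2 (log2 -1.08, adjusted p = 0.013) and Tgfbr1 (log2 -0.51, adjusted p = 0.0108) were called, while the number of all genes called went from 16 to 2862. That library had the most choroid plexus RNA, and it stood apart in other markers too. Its striatal projection neuron markers summed to 4138 CPM against 1308 and 1548 CPM in replicates 1 and 2. Its oligodendrocyte markers summed to 6918 CPM against 11610 and 11912 CPM. The part of these differences was not tested. All 5 choroid plexus markers had lower levels in Sham-Fabp4CKO by the unadjusted rule, and 2 of them by the adjusted threshold. Tgfb1 (log2 0.27, 95% interval -0.19 to 0.72) and Tgfbr2 (log2 -0.14, 95% interval -0.49 to 0.22) overlapped between the sham groups.

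A list of 100 other pathway genes, drawn up by role from textbook knowledge, had 99 genes in the table. After ICH 30 of 80 tested rose and 11 fell in fl_fl mice, with a median log2 difference of 0.20, beside the 26.2% and 19.3% of all genes given above. In CKO mice 31 of 82 rose and 7 fell, with a median of 0.36, beside 24.5% and 11.1% of all genes. The medians over all genes were 0.02 and 0.01. The CKO counts depended on single libraries: 8 or 9 rose and 0 fell without any 1 of the Sham-Fabp4CKO libraries, 11 rose and 1 fell without ICH-Fabp4CKO replicate 1, 17 rose and 2 fell without replicate 3, and 42 rose and 17 fell without replicate 2. Counts by role follow, with no test between roles. Of the genes that hold the latent ligand or release it, 8 of 11 rose in fl_fl and 9 of 11 in CKO mice and 0 fell, with medians of 1.06 and 1.59. Of the target genes, 11 of 13 and 9 of 14 rose and 0 fell, with medians of 1.66 and 1.09. Among the other receptors and co-receptors 2 of 14 rose and 2 fell in fl_fl mice, and 2 of 15 rose and 1 fell in CKO mice. Among 7 other Smads 1 rose and 2 fell, and 1 rose and 1 fell. Of the other ligands 2 of 14 rose and 3 fell, and 3 of 14 rose and 2 fell, and of the inhibitors 6 of 21 rose and 4 fell, and 7 rose and 3 fell.

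Genes that handle the latent ligand were among those that rose. Nrros, the microglial protein that anchors latent TGF-beta 1, rose by a log2 value of 2.72 (SE 0.29, adjusted p = 0.000647) in fl_fl mice, from 3.78 to 5.36 CPM up to 20.2 to 39.0 CPM. Cdkn1a, the cell cycle inhibitor p21, rose by 2.82 (SE 0.35, adjusted p = 0.00104) in fl_fl mice. In CKO mice Thbs1, a matrix protein that can activate latent TGF-beta, rose by 6.86 (SE 0.69, adjusted p = 0.00478), from 2.18 to 2.81 CPM up to 93.8 to 465 CPM, and Chrdl1, a BMP antagonist, by 1.63 (SE 0.19, adjusted p = 0.00578).

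Fewer genes of this list fell than rose. Sostdc1, a BMP antagonist of epithelia, measured 6.08, 11.6 and 17.1 CPM in Sham-Fabp4fl_fl and 0, 0.0605 and 0.213 CPM in ICH-Fabp4fl_fl (adjusted p = 0.000625). In Sham-Fabp4CKO it measured only 1.69 to 2.55 CPM, and it fell by 2.40 on the log2 scale after ICH (SE 0.45, adjusted p = 0.0139). Over the 3 Sham-Fabp4fl_fl samples it had the same order as the choroid plexus sum, whose part was not tested. Bmp3 and Bmp6, ligands of the BMP branch, fell in fl_fl mice by 2.76 (SE 0.45, adjusted p = 0.0031) and 0.97 (SE 0.16, adjusted p = 0.00352). Bmp6 went from 14.6 to 16.2 CPM down to 6.83 to 8.40 CPM there. In CKO mice sham and ICH overlapped for Bmp6 (8.57 to 10.3 and 7.23 to 18.1 CPM) and for Bmp3 (2.59 to 3.40 and 1.37 to 6.83 CPM). The part of choroid plexus in the high Bmp6 level of Sham-Fabp4fl_fl was not tested. In CKO mice Acvr2b, a type II activin receptor, and Grem1, a BMP antagonist, fell by 0.98 (SE 0.22, adjusted p = 0.0204) and 1.74 (SE 0.40, adjusted p = 0.0236). These CKO calls, with that of Sostdc1, were lost without any 1 of the Sham-Fabp4CKO libraries. Between genotypes 0 of the list's 80 genes tested after ICH and 0 of 77 in sham passed the adjusted threshold in edgeR. By the unadjusted rule 2 were higher and 3 lower after ICH, beside 643 higher and 647 lower of all 14600 genes. In sham 2 were higher and 7 lower, beside 125 higher and 465 lower of all 14395 genes.

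**Figure D5:**
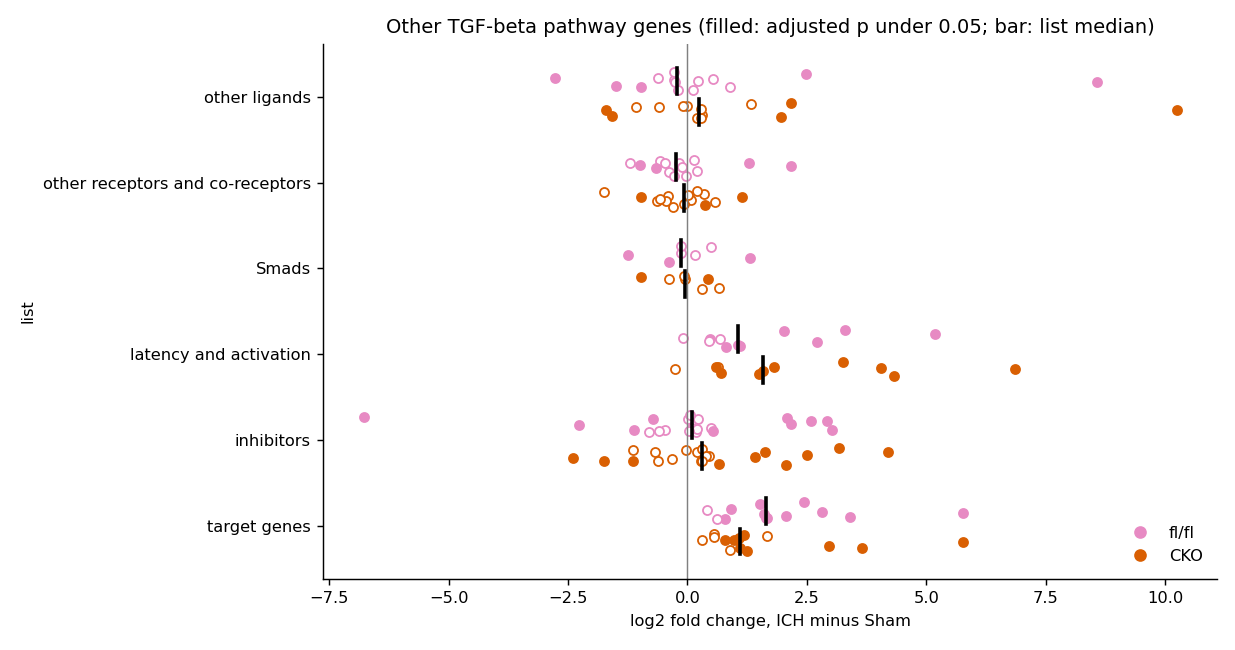
Log2 difference of ICH minus sham for each tested gene of 6 lists of pathway genes, in fl_fl and CKO mice (points, filled where adjusted p is under 0.05, vertical bar at the list's median). The lists of latency and activation genes and of target genes lie to the right of 0, with medians of 1.06 to 1.66, and the other 4 lists lie around 0.

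Some members, 3 of the 10, had close likenesses among the 15088 other genes, measured as the root mean square difference of centred log2 CPM over the 12 libraries. Tgfbr2 was nearest to Npc2 (0.13), Arap1 (0.13) and Il6ra (0.15), against an SD of 1.21. Tgfb3 was nearest to Slc44a1 (0.10), Kif5b (0.12) and Trim68 (0.15), against an SD of 0.49, and Smad7 to Zfp58 (0.11), Enpp4 (0.11) and Rhob (0.13), against an SD of 0.23. For Tgfbr2 the distance was thus small beside the gene's own range, which was less so for Tgfb3 and Smad7. These are descriptions over samples that share group and depth.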

How the data were processed

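RNA-seq libraries were made from 12 samples of hematoma-adjacent or sham brain tissue. The authors deposited estimated counts (expected counts) per gene without normalization, and 7.36% to 8.69% of values per library are not whole. The submitters' processing notes name Bowtie2 2.2.8, HISAT2, StringTie 1.3.1 and DESeq2. The genome build and the counting step were not given in the sources used here.

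Counts were rounded. Tests used edgeR 4.0.16 in R 4.3.3 (TMM, filterByExpr at its count minimum of 10 and total minimum of 15, quasi-likelihood F-test) on the 2 groups compared, or on all 12 libraries for the interaction, with Benjamini-Hochberg adjustment over all genes tested. Scripts were tested on simulated data. Total counts per library set the precision: the floor of 3 counts corresponds to 0.136 to 0.197 CPM. Exon lengths came from GENCODE M21, whose build may not be that of the files. Within each group no 2 libraries were copies, and pairs across groups were not compared. Correlations between the deviations of same-numbered samples were not all over 0.1 in any comparison, so numbers were not used as pairs. That cut-off cannot show that same-numbered samples are unrelated.

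The members, the gene lists and the marker lists were chosen with earlier results of these data known. All 10 members are named. From the pathway list the text names, per comparison and direction, up to 3 called genes of smallest p, and genes of like pattern for 3 of the 4 members with the nearest neighbour. A few genes that these rules would name are not reported here, and 1 microglia and 1 oligodendrocyte marker were left out of their lists, none of them for its values. The microglia share with each marker left out was added after seeing the data. Alternatives were RLE and total-count scaling, DESeq2 1.42.0, no filter, at least 10 counts in every library, the replicate block, all 12 libraries in 1 fit, an unadjusted p under 0.05 with a fold of 1.5, and each library left out.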

Additional observations from a re-analysis of the deposited data

Results flagged for a closer look

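The responses of 2 choroid plexus markers differed between genotypes by the interaction test (edgeR, adjusted p = 0.0278 each). The interaction log2 value was 5.73 for Ttr, which measured 778 to 2981 CPM in Sham-Fabp4fl_fl and 6.51 to 21.2 CPM in the other 9 samples. It was 7.33 for Folr1, which measured 5.12 to 19.3 CPM in Sham-Fabp4fl_fl and 1.32 to 1.55 CPM in Sham-Fabp4CKO. Folr1 had 0 to 1 reads per library in ICH-Fabp4fl_fl, so its fitted value depends on the prior count.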

How the results depend on the processing

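After ICH in fl_fl mice, with each library left out in turn, 5 to 6 members rose and 0 to 1 fell, 23 to 36 pathway genes rose and 6 to 12 fell, and 4181 to 8165 genes were called. In CKO mice 3 to 7 members rose, 8 to 42 pathway genes rose and 0 to 17 fell, and 751 to 10099 genes were called, the low counts coming without any 1 Sham-Fabp4CKO library (751 to 847) and the high count without ICH-Fabp4CKO replicate 2. The cause was not tested. DESeq2 had 11 pathway genes lower in CKO mice, and the replicate block had 2. Between genotypes after ICH, leaving libraries out gave 0 members and 0 to 2 genes. DESeq2 called 1 member, 1 pathway gene and 578 genes, all 12 libraries in 1 fit 1, 1 and 362, and the unadjusted rule 1 member higher, 2 pathway genes higher and 3 lower, and 1290 genes. In sham, leaving libraries out gave 0 to 2 members lower, 0 to 8 pathway genes higher, 0 to 14 lower and 0 to 2862 genes, the most without Sham-Fabp4fl_fl replicate 3. DESeq2 called 1 member lower, 2 pathway genes lower and 150 genes, at least 10 counts in every library left 2 genes, and the unadjusted rule had 2 members lower, 2 pathway genes higher and 7 lower, and 590 genes. For the interaction, leaving libraries out gave 0 to 1 members higher, 0 to 2 pathway genes higher and 0 to 371 genes, the most without ICH-Fabp4CKO replicate 2. DESeq2 called 1 member higher, 2 pathway genes higher and 1 lower, and 266 genes, and the unadjusted rule 2 members higher, 6 pathway genes higher and 2 lower, and 1191 genes.

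Same-numbered samples were not used as pairs, since the correlations of their deviations were not all over 0.1 in any comparison. For ICH against sham in fl_fl mice these were 0.20, 0.02 and 0.13, with a mean of 0.12 against -0.06 for other-numbered samples. In the other comparisons the same-numbered mean was the lower. That cut-off cannot show that the numbers carry nothing. Summed striatal projection neuron markers shared their order by number between sham (1308, 1548 and 4138 CPM) and ICH (1063, 1570 and 3504 CPM) in fl_fl mice. They also did in CKO mice (3423, 4931 and 2792 CPM, and 1380, 2597 and 1098 CPM). With the replicate block, 1 gene was called for the interaction and Tgfb3 was not called after ICH in CKO mice (log2 0.57, adjusted p = 0.0642). Tgfb3 in CKO mice was also not called with total counts (adjusted p = 0.0535) or with all 12 libraries in 1 fit (adjusted p = 0.0591). No member's called difference changed sign under any alternative run. Gdf15 in sham was below the count filter, and its value there is not given. With 3 samples a group, intervals between genotypes after ICH are wide, for Gdf15 from -1.55 to 2.03.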
